A study of Mus musculus with 9 samples.

Results

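*Shank3* encodes a scaffold protein of excitatory synapses, and the question addressed here was how the striatal transcriptome of mice with 1 targeted *Shank3* allele (HET) differed from that of wild-type (WT) mice. The comparison took the 3 HET and 3 WT libraries of a series of 9, in which the other 3 libraries came from homozygous knock-out (KO) mice. Each library was made from the striatum of 1 male mouse of 10 to 12 weeks on a C57BL/6J background, and the WT, HET and KO mice were littermates of the Shank3B line, in which the targeted exons lie inside the gene and other exons remain. Of 15464 genes in the table, 14239 reached a normalized count of 10 in 3 or more of the 9 libraries and were tested. A normalized count is the estimated number of reads of a gene divided by a scaling factor for its library.

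*Shank3* links glutamate receptors, through the partners *Dlgap* and Homer, to the actin cytoskeleton beneath the synapse, and it is abundant in the striatum. Most striatal neurons are medium spiny neurons, which release GABA and receive glutamate from the cortex and thalamus. Neurons of the direct pathway carry the dopamine receptor *Drd1* and those of the indirect pathway the receptor *Drd2*. In people, haploinsufficiency of this gene is linked to autism and to Phelan-McDermid syndrome.

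The summed normalized counts ran from 30830020 to 33790296 per HET or WT library. On the first principal component, which held 33.6% of the variance over all libraries, HET3 stood at 33.8 and KO3 at 34.2, and the other 7 libraries lay between -17.0 and 1.36. WT3 stood apart in its cell type markers: the 15 medium spiny neuron markers summed to 180343 normalized counts there, against 304443 and 338703 in WT1 and WT2 and 232271 to 308941 in the HET libraries. The 12 oligodendrocyte markers summed to 278706 in WT3, against 180128 and 168953 in the other WT libraries. All 15 medium spiny neuron markers were above 0 in the table, and so were the cortical markers *Slc17a7* and *Tbr1*. In tissue such as this, fewer cells of a type and less RNA per cell cannot be told apart.

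No gene passed the test between HET and WT at an adjusted p under 0.05 (limma with Benjamini-Hochberg adjustment, 0% of 14239 genes; smallest adjusted p = 0.811). The paper, which used DESeq2 and fdrtool on the same libraries, reported 3 genes at an adjusted p under 0.05, so the number passing depended on the test. At an unadjusted p under 0.05 there were 158 genes, which is 1.11% of those tested, with 86 higher in HET (0.604%) and 72 lower (0.506%). The 3 HET libraries did not overlap with the 3 WT libraries for 633 genes (4.45%), of which 321 were higher (2.25%) and 312 lower (2.19%), and 117 of the 633 also had an unadjusted p under 0.05. Full separation of 3 against 3 libraries has an exact permutation p of 0.1. The shares of 1.11% and 4.45% lie under those that p-values of 0.05 and 0.1 give when groups do not differ. Without HET1, HET2 or WT3, the unadjusted p was under 0.05 for 289, 394 or 268 genes. Without HET3, WT1 or WT2 it was so for 122, 119 or 150 genes. The median log2 fold change over all genes was -0.0027, 49.3% of genes were above 0, and the median size of the change was 0.088.

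The intervals show how precisely the changes were estimated. The 95% interval of the log2 fold change reached 0.338 to either side for the median gene. It lay within a 2-fold change either way for 90.1% of genes and within a 1.5-fold change for 69.4%. With 3 mice per genotype, the intervals of many genes therefore reached a 1.5-fold change. They are not adjusted for the number of genes tested, so larger changes could also miss the adjusted p. *Slc5a6*, described below, stood at 0.527 times the WT level with an adjusted limma p of 0.811.

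**Figure D1:**
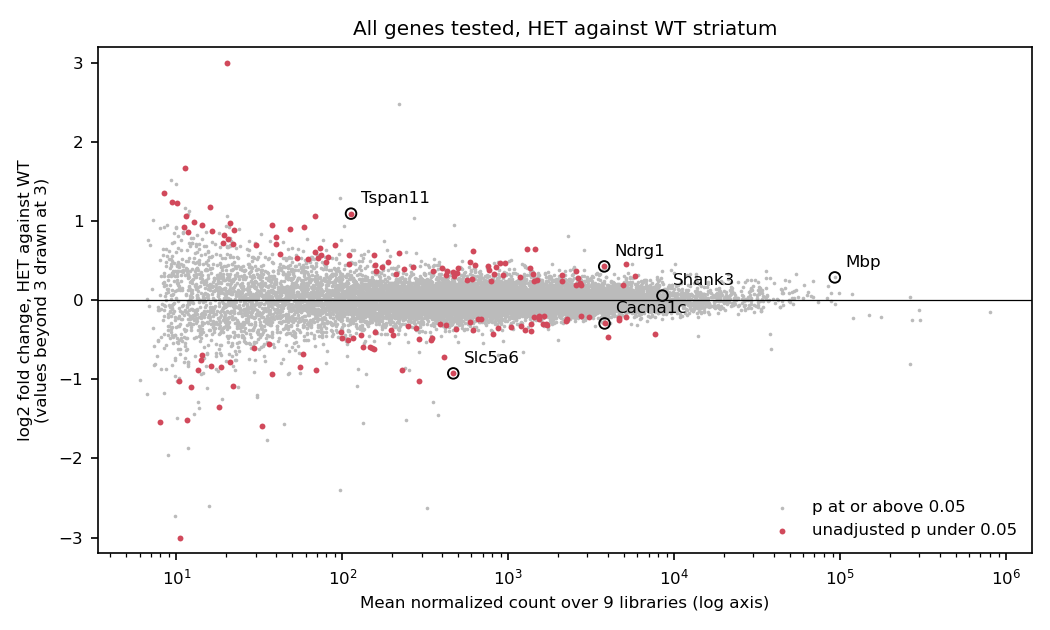
Log2 fold change of HET against WT for each of 14239 genes (vertical axis) against its mean normalized count over 9 libraries (horizontal log axis), with the 158 genes at an unadjusted p under 0.05 in red, 6 named genes circled and 2 genes beyond a size of 3 drawn at 3. *Slc5a6* lies at -0.92 among genes of similar abundance that lie closer to 0, and *Shank3* lies at 0.06.

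The targeted gene was examined first. *Shank3* (chromosome 15, 89499623 to 89560261, plus strand, GRCm38) had normalized counts of 7209, 8812 and 6043 in the WT libraries and 7575, 7098 and 8050 in the HET libraries, which overlapped. The KO libraries stood at 10237, 10798 and 10578, above all others. The log2 fold change of HET against WT was 0.06 (95% interval -0.23 to 0.34). The gene total counts reads from every exon, also those outside the targeted part, so it does not check the genotype labels. The paper attributed the higher KO total to non-targeted exons, which it also measured by qRT-PCR, and described their increase in HET as well. Single exons were not examined here.

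Among the other scaffold proteins, *Homer2*, which ties Shank proteins to metabotropic glutamate receptors, was the member with an unadjusted p under 0.05. It had 1694, 1420 and 1650 normalized counts in WT and 1291, 1366 and 1376 in HET. All 3 HET libraries lay below the WT libraries, while the KO libraries (1586, 1673 and 1663) lay within the WT range. The log2 fold change was -0.24 (95% interval -0.44 to -0.03; limma, adjusted p = 0.999), and it stayed between -0.32 and -0.19 when any 1 library was left out. Of the 21 scaffold genes tested, 9 had a fold change above 0 and 12 below, with a median of -0.07, and for 19 of them the interval lay within a 1.5-fold change. The paralogs *Shank1* (-0.07, interval -0.42 to 0.29) and *Shank2* (-0.14, interval -0.40 to 0.12), the *Homer2* relative *Homer1* (-0.13), the PSD-95 gene *Dlg4* (0.08) and the Shank-binding *Dlgap3* (-0.07) all had intervals that included 0. Actin regulators had 0 of 26 genes at an unadjusted p under 0.05, against 1.11% of all genes, with *Cyfip2* at -0.11 and *Wasf1* of the WAVE complex at -0.10.

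The smallest p of the comparison belonged to *Slc5a6*, the sodium-dependent transporter that carries biotin, pantothenate and lipoate into cells (chromosome 5, 31036036 to 31048924, minus strand, GRCm38). Its normalized counts were 585.5, 611.8 and 516.8 in WT and 318.5, 268.4 and 314.9 in HET. The highest HET library lay well under the lowest WT library, and the means were 571.4 ± 49.0 and 300.6 ± 28.0 (SD, n = 3 each). The log2 fold change was -0.92 (95% interval -1.24 to -0.61), which is a level 0.527 times that of WT. The unadjusted limma p was 5.7e-05 and the adjusted p = 0.811. Leaving out any 1 library gave values between -0.995 and -0.846.

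By mean level the order of the genotypes was HET, KO and WT. KO mice stood at 438.5, 555.7 and 584.7, each above the HET libraries. *Slc5a6* was singled out by its HET against WT values, and the same HET libraries enter KO against HET. The interval of that comparison is therefore a description. KO against HET, tested directly, differed by 0.80 on the log2 scale (95% interval 0.49 to 1.11; limma, adjusted p = 1), and KO against WT by -0.13.

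*Slc5a6* is transcribed away from a close neighbour, *Atraid*, which lies on the plus strand. In RefSeq (GRCm38.p6) the start sites used here are at 31048562 for *Slc5a6* and 31048640 for *Atraid*, and the 77 bases between them, chr5:31048563-31048639, are shown because both genes start at its edges. RefSeq lists 2 start sites for *Slc5a6*. GENCODE places exons of *Atraid* transcripts over these bases, and its *Slc5a6* gene reaches past the whole stretch, to 31048924. The stretch is written on the plus strand, with a match to the GC box letters GGGCGG in capitals:
Slc5a6 to Atraid: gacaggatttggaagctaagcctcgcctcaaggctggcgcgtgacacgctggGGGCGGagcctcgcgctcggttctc
GGGCGG on either strand was found in 21.7% of the 32851 RefSeq promoter windows of the same length that end at a start site. The letters CCAAT, on either strand, did not occur in the stretch and occurred in 14.7% of those windows.

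*Atraid*, which was looked at because of this position, had 876.7, 974.3 and 1021 normalized counts in WT and 912.1, 926.5 and 630.4 in HET. The HET3 library was low and the other 2 overlapped with WT. The log2 fold change was -0.24 (95% interval -0.59 to 0.12). Without HET3 it was -0.06, whereas that of *Slc5a6* was -0.96.

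The genes that use the vitamins carried by *Slc5a6* were examined next. *Hlcs*, which attaches biotin to carboxylases, stood at 0.01 (95% interval -0.31 to 0.33) and *Btd*, which releases biotin for reuse, at -0.06 (interval -0.44 to 0.33). *Slc5a6* was the only one of 11 biotin genes tested with an unadjusted p under 0.05 (9.09%, against 1.11% of all genes). The list, and *Slc5a6* within it, was chosen with earlier results of these data known, so that share is not a result about the list. The other fold changes ran up to 0.48, and the median of the list was 0.05. Of 17 genes of pantothenate and lipoate use, 0 had an unadjusted p under 0.05, and the fold changes ran from -0.11 to 0.29, with the kinase *Pank1* at -0.04.

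**Figure D2:**
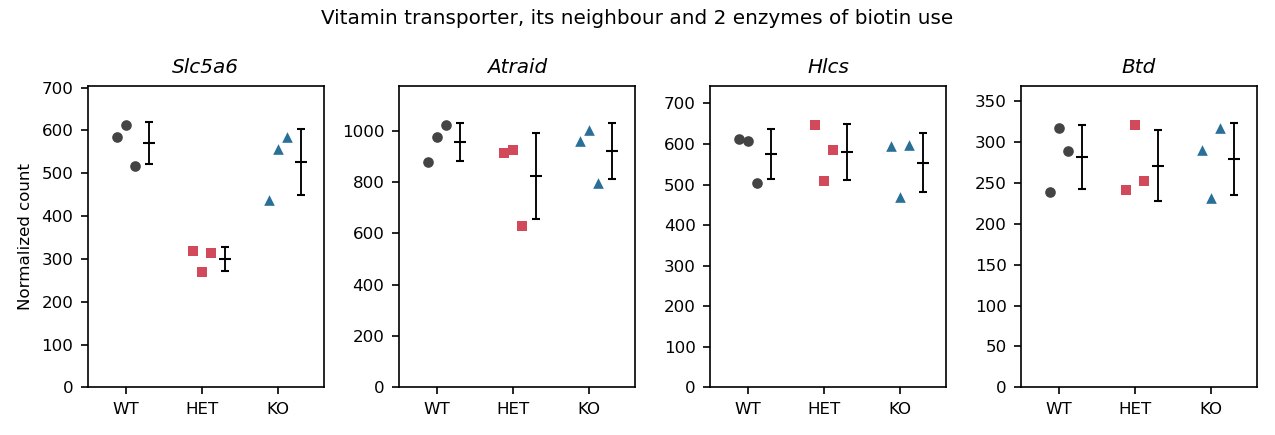
Normalized counts per library (vertical axis, from 0) of *Slc5a6*, its neighbour *Atraid* and the biotin enzymes *Hlcs* and *Btd* in 3 WT, 3 HET and 3 KO libraries, with black bars for the mean and SD of each group. The 3 HET libraries of *Slc5a6* sit between 268.4 and 318.5, below all WT and KO libraries, and the HET libraries of the other 3 genes overlap with WT.

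Beyond *Slc5a6*, the genes with the clearest separation were described in each direction: the 12 with the smallest p among genes of a mean normalized count of at least 50 whose HET and WT libraries did not overlap and which the study's text does not discuss. The 24 genes were selected by p and separation, so their values are a description. *Tspan11*, a membrane protein of the tetraspanin family, had the largest difference among the 12 higher genes. Its normalized counts were 54.17, 73.71 and 96.8 in WT and 198, 104.5 and 185.6 in HET. The log2 fold change was 1.09 (95% interval 0.41 to 1.78; limma, adjusted p = 0.999), and the KO libraries (104, 74.06 and 124.3) reached into both groups.

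A few of the higher genes act in mitochondria or in DNA and RNA upkeep. *Ucp2*, a carrier of the mitochondrial inner membrane, had 420.5, 564.6 and 397.5 normalized counts in WT and 641.9, 834.1 and 640.6 in HET, a log2 fold change of 0.62 (95% interval 0.14 to 1.09). *Nthl1*, a glycosylase that removes oxidized bases from DNA, had 68.33, 56.12 and 58.24 in WT and 94.62, 79.83 and 97.48 in HET, a log2 fold change of 0.57 (interval 0.18 to 0.96). *Trub2*, which modifies mitochondrial RNA, differed by 0.33. In *Ucp2* the WT2 library came closest to HET, and in *Nthl1* all KO libraries (68.59, 73.54 and 76.66) lay below HET.

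*Ndrg1*, a stress-responsive gene needed for myelin in peripheral nerve, was the most abundant of the 12. It had 3194, 2881 and 3523 normalized counts in WT and 3800, 4220 and 4917 in HET, with HET3 the highest, and a log2 fold change of 0.43 (95% interval 0.12 to 0.73). *Mvd*, which makes isopentenyl diphosphate for sterol synthesis, had 689.4, 656.3 and 682.3 in WT and 938.7, 756.1 and 959.5 in HET, a log2 fold change of 0.38. The remaining higher genes were *Rwdd1* (0.47), the telomere-binding *Zbtb48* (0.41), *Ostf1* (0.37), the actin-bundling *Pls1* (0.36), the RNA polymerase subunit *Polr2f* (0.31) and *Mkln1* (0.28), a subunit of a ubiquitin ligase. Of these, *Polr2f* had a KO against WT value of 0.00.

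After *Slc5a6*, the largest of the 12 lower genes by size were *Sntb1*, *Lgr5* and *Fign*. *Sntb1*, a syntrophin of the dystrophin complex, had 72.39, 61.6 and 80.44 normalized counts in WT and 47.09, 37.12 and 48.53 in HET, a log2 fold change of -0.68 (95% interval -1.195 to -0.167). *Lgr5*, a receptor for R-spondins that strengthens Wnt signalling, had 171.7, 154.4 and 204.6 in WT and 113.4, 115.1 and 117.5 in HET, a log2 fold change of -0.60 (interval -1.07 to -0.13). The HET libraries of *Lgr5* lay close together, with an SD of 2.05, while the KO libraries spread from 115.1 to 207.7. *Fign*, which severs microtubules, stood at -0.60 (interval -1.10 to -0.09).

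*Cacna1c*, the pore subunit of the L-type calcium channel Cav1.2 (chromosome 6, 118587240 to 119196418, minus strand, GRCm38), was the best known neuronal gene among them. It had 4353, 4557 and 3652 normalized counts in WT and 3630, 3258 and 3321 in HET. WT3 lay only just above HET1, and the log2 fold change was -0.29 (95% interval -0.53 to -0.06; limma, adjusted p = 0.999). *Nfatc1*, a transcription factor that the calcium-dependent phosphatase calcineurin activates, had 211.7, 232.9 and 228.7 in WT and 174.9, 187.1 and 155.7 in HET, a log2 fold change of -0.38.

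*Setbp1*, which encodes a DNA-binding partner of the SET protein, had 1090, 1051 and 1182 normalized counts in WT and 908, 904.9 and 824.8 in HET, a log2 fold change of -0.33. All KO libraries lay above HET there (996.7, 1209 and 1124), and KO against HET differed by 0.33 (95% interval 0.11 to 0.56; limma, adjusted p = 1). *Setbp1* was chosen by its HET and WT values, and the same HET libraries enter KO against HET, so that interval is a description. The imprinted transcription factor *Plagl1* (-0.36), the Rab14 activator *Dennd6b* (-0.26), the chemokine scavenger *Ackr2* (-0.47), the oxysterol-binding *Osbpl3* (-0.30) and the mitochondrial carrier *Slc25a53* (-0.36) made up the rest of the lower genes. *Ackr2* and *Dennd6b* were as low in KO as in HET, with KO against WT values of -0.45 and -0.29, and *Osbpl3* and *Slc25a53* were near WT in KO, at 0.02 each.

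Over the 9 fits that each left out 1 library, an unadjusted p under 0.05 held in all for 7 of the 24 genes: *Tspan11*, *Nthl1*, *Ndrg1*, *Slc5a6*, *Setbp1*, *Plagl1* and *Dennd6b*.

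**Figure D3:**
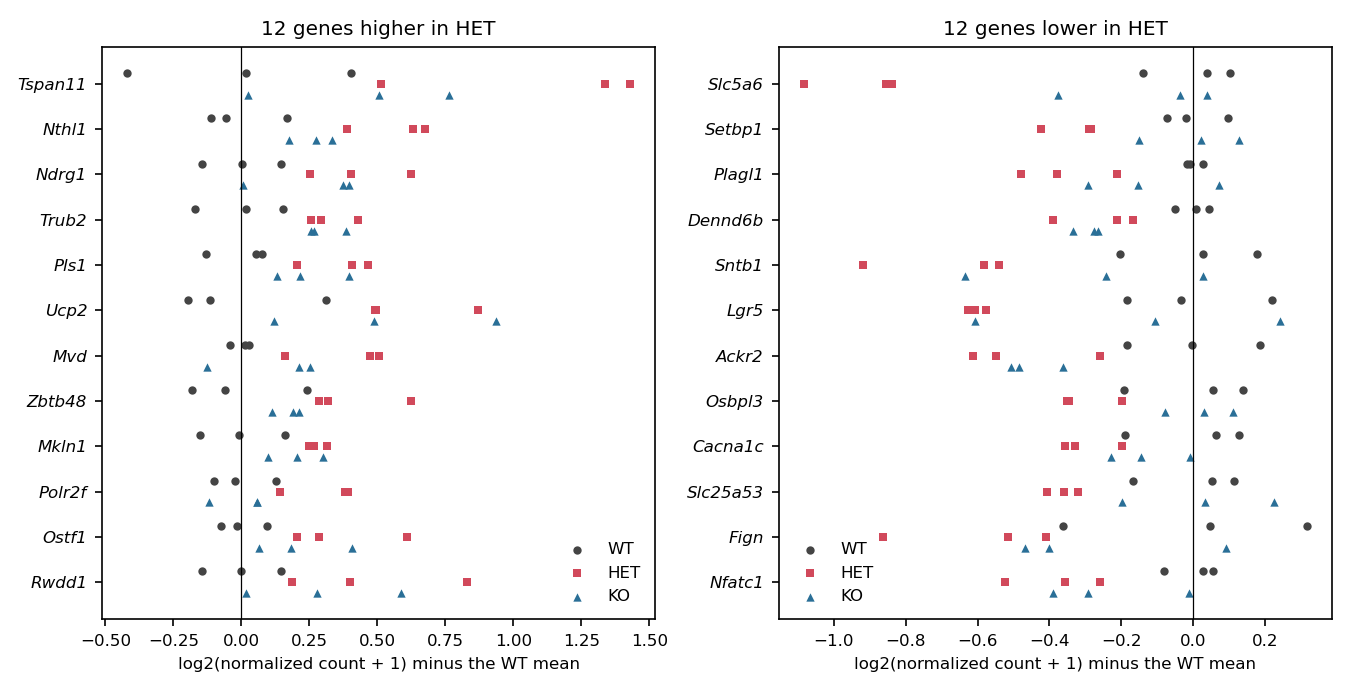
For the 12 higher and 12 lower genes, each point is 1 library, drawn as log2(normalized count + 1) minus the mean of the WT libraries (horizontal axis), for WT (circles), HET (squares) and KO (triangles). HET and WT points do not overlap in any row, which the choice of genes requires, and KO points lie among the WT points for *Slc5a6* in part and among the HET points for *Dennd6b* and *Ackr2*.

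The genes that give medium spiny neurons their identity varied more between WT mice than between the genotypes. *Drd1* had 5028, 4522 and 2370 normalized counts in WT and 5086, 3195 and 3969 in HET, and *Drd2* had 3551, 4703 and 2058 in WT and 3447, 2613 and 5160 in HET. In both, WT3 was the lowest of the 6 libraries. The log2 fold changes were 0.09 (95% interval -0.55 to 0.72) for *Drd1* and 0.15 (interval -0.51 to 0.81) for *Drd2*.

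The same held for the peptides and signalling proteins of these neurons. The direct pathway peptides *Tac1* and *Pdyn* stood at -0.10 and 0.18, the indirect pathway genes *Adora2a* and *Penk* at 0.05 and -0.01, and *Ppp1r1b*, the dopamine-regulated phosphatase inhibitor DARPP-32, at -0.06. The transcription factor *Bcl11b* stood at 0.09 and the G-protein regulator *Rgs9* at 0.00. Of the 7 direct, 6 indirect and 15 shared markers tested, 0 had an unadjusted p under 0.05, against 1.11% of all genes. The list medians were 0.09 (direct), 0.10 (indirect) and 0.02 (both), and without WT3 they were -0.07, -0.23 and -0.22. The cyclase *Adcy5* (0.17) and the phosphodiesterase *Pde10a* (0.02), which set cAMP in these cells, also had intervals that included 0, as did the interneuron genes *Chat* (0.13), *Sst* (-0.02) and *Pvalb* (0.19).

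Glutamate and GABA receptor genes had medians slightly below 0. Of 16 ionotropic, 7 metabotropic and 16 GABA receptor genes tested, 0 had an unadjusted p under 0.05, against 1.11% of all genes. The medians were -0.05, -0.08 and -0.06. The AMPA receptor subunit *Gria1* was at -0.14 (95% interval -0.41 to 0.13), the NMDA receptor subunits *Grin2a* and *Grin2b* at 0.23 and -0.04, and the receptor *Grm5*, which Homer proteins bind, at -0.15. The GABA-A subunits *Gabra4* and *Gabrd* were at -0.13 and 0.13.

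Potassium channels had 3 of 78 genes at an unadjusted p under 0.05 (3.85%, against 1.11% of all genes). This list was chosen with earlier results of these data known. *Kcnmb2*, an accessory subunit of calcium-activated BK channels, had 31.81, 39.04 and 43.85 normalized counts in WT and 64.11, 84.61 and 71.7 in HET, a log2 fold change of 0.93 (95% interval 0.11 to 1.74). *Kcng4*, a modifier of Kv2 channels, was at 0.57 and *Kcnip4*, which binds Kv4 channels, at -0.30. The inward rectifier *Kcnj4*, abundant in striatum, was at 0.00 (interval -0.26 to 0.25). Sodium and calcium channels had *Cacna1c* alone of 37 genes at that p, with 14 genes above 0 and 23 below.

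Release and peptide genes held a single gene each at an unadjusted p under 0.05. These were 1 of 30 genes tested (3.33%) and 1 of 19 (5.26%), against 1.11% of all genes. *Adcyap1*, which encodes the peptide PACAP, had 517.4, 350.8 and 517.5 normalized counts in WT and 247.7, 416 and 203.3 in HET. HET2 lay above WT2, so the groups overlapped, and the log2 fold change was -0.72 (95% interval -1.31 to -0.13). In vesicle release, *Syn3*, a synapsin, stood at -0.48 (interval -0.91 to -0.05), and the SNARE protein *Snap25* and the calcium sensor *Syt1* at 0.04 and 0.04. The peptide *Cartpt* had 46.87 to 155 normalized counts over the 6 libraries and an interval of -0.99 to 1.54.

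**Figure D4:**
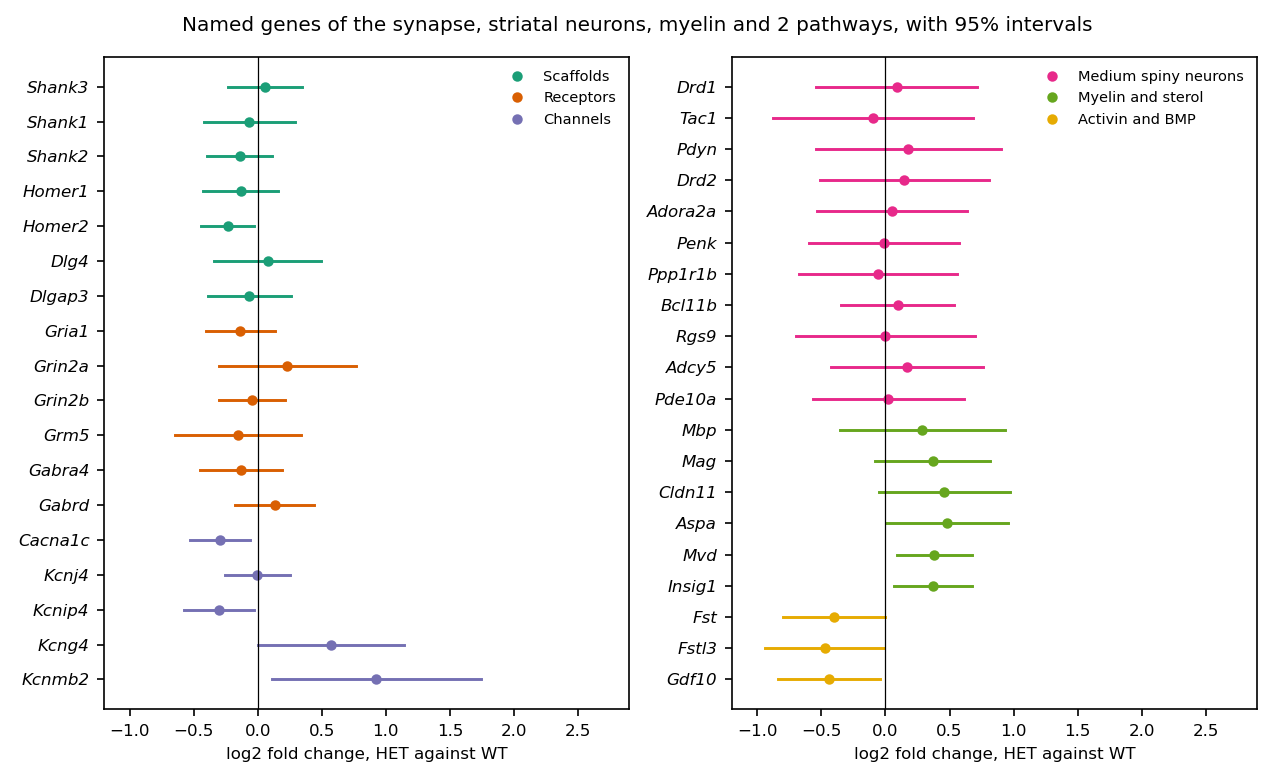
Log2 fold change of HET against WT (points) with its 95% interval (lines) for 38 named genes of the synapse, striatal neurons, myelin and sterol synthesis, and the activin and BMP pathway. Intervals of the medium spiny genes are wide and include 0, and those of *Homer2*, *Cacna1c*, *Mvd* and *Insig1* lie to one side of 0 without adjustment.

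The main myelin genes lay higher in each HET library than in 2 of the 3 WT libraries. *Mbp*, the basic protein of myelin, had 75118, 69792 and 116028 normalized counts in WT and 96950, 119417 and 95560 in HET, a log2 fold change of 0.29 (95% interval -0.36 to 0.93). All 12 oligodendrocyte markers had a fold change above 0, from 0.26 to 0.48. *Aspa*, which breaks down N-acetylaspartate, was the one with an unadjusted p under 0.05 (8.33% of them, against 1.11% of all genes). It stood at 0.48 (interval 0.00 to 0.96). The myelin genes *Mag* and *Cldn11*, which were singled out after their values were seen, stood at 0.37 and 0.46. The median of the 12 was 0.36, and 0.57 without WT3 and 0.31 without HET3. The summed level of the 12 markers ran from 168953 to 278706 in WT and from 238986 to 268491 in HET, and the groups overlapped. Oligodendrocyte precursors, with *Pdgfra* at 0.04, had a median of 0.02.

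Markers of the other cell types had 0 genes at an unadjusted p under 0.05, against 1.11% of all genes. The astrocyte genes *Aqp4* (0.05) and *Gfap* (0.39, interval -0.25 to 1.02), the microglial receptor *Cx3cr1* (-0.05), the endothelial *Cldn5* (0.25) and the mural *Acta2* (0.28) had intervals that included 0. The fibroblast collagen *Col1a1* (0.05), the ciliated-cell factor *Foxj1* (0.23) and the glutamate transporters *Slc17a7* of cortex (-0.08) and *Slc17a6* of thalamus (-0.19) did so too. Of the 9 endothelial markers tested 8 were above 0, with a median of 0.18. Choroid plexus had 7 of its markers tested, without *Ttr*, with a median of 0.28, and blood had 3, without *Hba-a1*, with a median of 0.22. When any 1 library was left out, these 2 medians ranged from 0.021 to 0.477 and from -0.091 to 0.558.

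Cholesterol synthesis and interferon-stimulated genes had the highest medians of the 34 gene lists, 0.123 and 0.117, against -0.0027 for all genes. The lists were chosen with earlier results of these data known. When any 1 library was left out, the medians ranged from 0.073 to 0.163 and from 0.025 to 0.176. Of the 17 interferon-stimulated genes tested, 12 were above 0 and 0 had an unadjusted p under 0.05. Relative to the WT mean, the per-library medians of this list overlapped. They were -0.053, -0.048 and 0.131 in WT and 0.092, 0.226 and -0.017 in HET. Of the 22 cholesterol genes, 18 were above 0 and 2 had an unadjusted p under 0.05 (9.09%, against 1.11%). They were *Mvd* and *Insig1*, the sterol-sensing brake of the pathway, which had 2436, 1979 and 2280 normalized counts in WT and 3229, 2423 and 3033 in HET. HET2 lay within the WT range, and the log2 fold change of *Insig1* was 0.37 (95% interval 0.07 to 0.67). *Dhcr7*, the last step, which was singled out after its values were seen, stood at 0.42. Per library, the median of the cholesterol list on the log2 scale, relative to the WT mean, was 0.00, -0.09 and 0.08 in WT and 0.10, 0.11 and 0.02 in HET. That of the oligodendrocyte markers was -0.16, -0.27 and 0.46 in WT and 0.21, 0.33 and 0.47 in HET, and their part in the cholesterol values was not tested.

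Of the 46 activin and BMP genes tested, 3 had an unadjusted p under 0.05 (6.52%, against 1.11% of all genes), all lower in HET. The list was chosen with earlier results of these data known, so that share is not a result about the list. The 3 genes were the secreted activin antagonists *Fst* and *Fstl3* and the ligand *Gdf10*. *Fst* had 117.8, 113 and 133.9 normalized counts in WT and 83.62, 89.82 and 102.4 in HET, *Fstl3* had 100.2, 148.2 and 117.5 in WT and 80.26, 88.36 and 91.2 in HET, and *Gdf10* had 254.1, 251.7 and 238 in WT and 153.5, 227.3 and 172.6 in HET. HET lay below WT in all 3 genes without overlap, which held for 2.19% of all genes. The 3 genes were picked by p in the same libraries, so this is a description. Their log2 fold changes were -0.40 (95% interval -0.80 to 0.00), -0.47 (interval -0.94 to -0.01) and -0.44 (interval -0.84 to -0.05). The KO against WT values were -0.56, -0.47 and -0.52, and KO and HET were compared with the same WT libraries.

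Activity and stress programmes showed no gene at an unadjusted p under 0.05 except in the clock list, against 1.11% of all genes. The immediate early genes *Fos* (-0.20), *Arc* (0.03) and *Npas4* (-0.33), the glucocorticoid targets *Sgk1* (0.12) and *Fkbp5* (0.07) and the chaperones *Hspa1a* (0.17) and *Hspa5* (-0.04) had intervals that included 0. *Sgk1* ranged from 1621 to 4531 in WT and from 1830 to 5653 in HET. *Per2*, a repressor of the clock, had 1881, 1879 and 1762 in WT and 1371, 1296 and 1841 in HET, a log2 fold change of -0.31 (95% interval -0.62 to 0.00). HET3 lay within the WT range, and *Dbp*, a clock output gene, was at 0.03.

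Metabolic and growth lists were close to 0. Cytosolic ribosomal proteins had 54 of 79 genes above 0 with a median of 0.05, and 2 of them, *Rpl27a* (0.21) included, had an unadjusted p under 0.05. Glycolysis (median 0.07, *Hk2* at 0.10), oxidative phosphorylation (median 0.04 over 81 genes) and the mTOR pathway (median 0.00, *Mtor* at 0.13) had 0 such genes. Across the 34 gene lists the medians ran from -0.08 to 0.12, and 32 were under 0.1 in size. In 20 lists 0 genes had an unadjusted p under 0.05, where the share over all genes was 1.11%.

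Several lists had more genes below 0 than above, with small medians. Of 33 autism-linked chromatin regulators, 25 were below 0 with a median of -0.04, which ranged from -0.08 to 0.02 when 1 library was left out, with *Chd8* at -0.02. Relative to the WT mean, the per-library medians of the list overlapped, at 0.072, -0.017 and -0.070 in WT and -0.037, -0.163 and 0.042 in HET. *Arid1b*, *Asxl3* and *Auts2*, named after their values were seen, were the 3 without overlap, at -0.16, -0.29 and -0.21, against 4.45% of all genes, and none of the 3 had an unadjusted p under 0.05. RNA-binding and splicing factors had 44 of 63 genes below 0 (median -0.04), synaptic adhesion 38 of 59 (median -0.05, *Nlgn2* at -0.07) and clustered protocadherins 34 of 49 (median -0.05). *Pcdhga2* was the protocadherin with an unadjusted p under 0.05 (2.04% of the list, against 1.11% of all genes). It stood at -0.28, and since these isoforms share sequence its count is uncertain.

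In the matrix and guidance lists, *Unc5b*, a netrin receptor (0.41, 1.45% of its list), and *Col17a1*, a transmembrane collagen (-0.88, 1.79% of its list), had an unadjusted p under 0.05, against 1.11% of all genes. The guidance receptor *Ephb1* (0.05), the basement membrane collagen *Col4a1* (0.02), the cadherin *Cdh13* (0.02), the Wnt pathway genes *Ctnnb1* (0.04) and *Axin2* (-0.18) and the deacetylase *Hdac2* (-0.01) did not. Of 26 filamin and sarcomere genes, 5 had such a p (19.2%, against 1.11% of all genes). The list, and the filamins within it, was chosen with earlier results of these data known. The 5 genes were *Myl1* (-1.51), *Neb* (-0.84) and *Tnnt2*, lower in HET, and *Tnni1* (0.49) and *Flnc*, higher in HET. *Flnc*, a muscle filamin, was listed at 0 in all WT libraries and at 53.59, 19.56 and 91.96 in HET, and at 0, 16.33 and 0 in KO. No fold is given for it, since 0 can be a failed estimate. *Flna*, a filamin expressed in many tissues, was at -0.01.

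**Figure D5:**
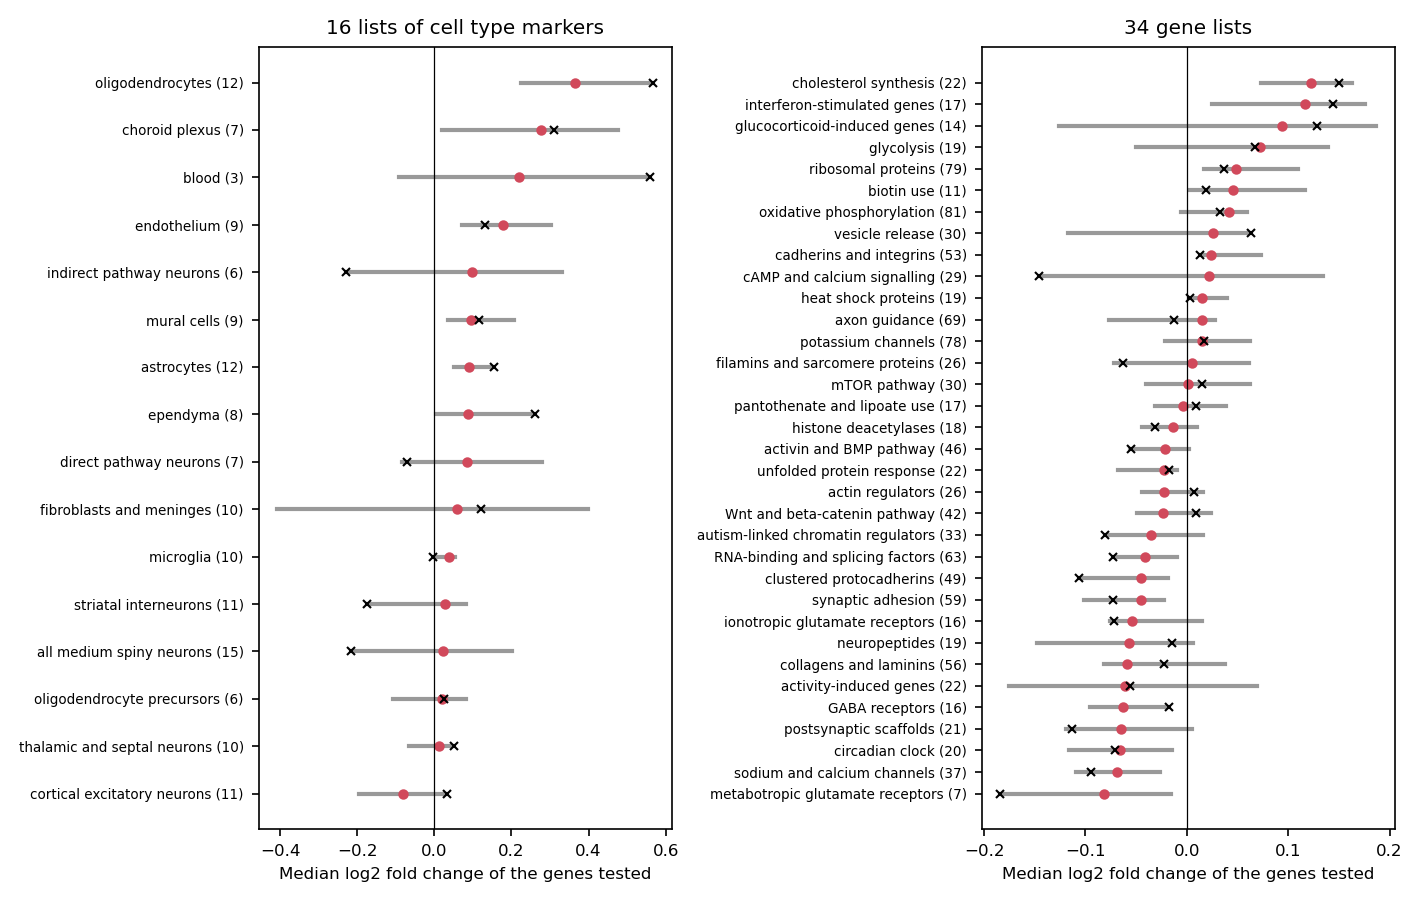
Median log2 fold change of HET against WT over the genes tested (horizontal axis) in 16 lists of cell type markers and 34 gene lists, with the number of genes in parentheses; points give the value with all libraries, grey bars the range over the 9 fits with 1 library left out, and crosses the value without WT3. The oligodendrocyte median lies at 0.36 and at 0.57 without WT3, and the 3 medium spiny lists cross to below 0 without WT3.

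A change past 2-fold was rare. Of 54 genes with a log2 fold change beyond 1 in size, 13 had a mean normalized count of at least 50, and *Tspan11* was the only one of the 13 whose groups did not overlap. *Calb2*, the calcium-binding protein calretinin, had 260.5, 153 and 1295 normalized counts in WT and 152.5, 162.9 and 141.9 in HET, so its value of -1.29 rested on WT3 and was -0.39 without it. *Uvssa* was listed at 0 in HET3 and KO3 but at 438.4 and 401.1 in the other HET libraries, and *Tmem214* was listed at 0 in HET1 alone.

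KO against HET was the direct test of whether the genotypes differed from each other, and no gene passed the adjusted p there (0% of 14239 genes). At an unadjusted p under 0.05 there were 186 genes (1.31%), and 318 with the replicate number as a block, with 0 past the adjusted p in either fit. With an empirical null, modelled on the use of fdrtool in the study, 2 genes passed between KO and HET and 1 between HET and WT.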

How the data were processed

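RNA-seq libraries were made from the striatum of 9 male mice, 3 per genotype and 1 mouse per library. Per the labels and the study's methods, the authors estimated transcript abundance with Salmon 0.9.1 on GRCm38, from libraries of a stranded mRNA kit, imported it with tximport into R 3.6.0, and deposited a signal, counts per gene normalized by DESeq2 1.19.11 size factors. Whole reads were not recovered, so no count test was run and no interval from counting error is given.

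Values were transformed as log2(normalized count + 1), so that changes of low genes are understated. A linear model over all 9 libraries was fitted (limma 3.58.1, R 4.3.3), using a trend in the variance prior and no covariate. P-values were adjusted by Benjamini-Hochberg over 14239 genes, with a threshold of 0.05 and two-sided tests. An exact permutation test of 3 against 3 libraries cannot go below p = 0.1. Symbols were found for 15462 of 15464 genes. Coordinates came from GENCODE (GRCm38) and the sequence from RefSeq (GRCm38.p6). Figures were drawn with matplotlib 3.10.9.

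Replicate numbers were checked by the correlation of deviations from the group means. It was 0.515, 0.281 and 0.506 between HET and KO libraries of the same number, and 0.319, -0.014 and 0.005 between WT and HET. Between WT and KO it was 0.243, -0.221 and 0.024. The counts given with the block come from a fit over all 9 libraries with the replicate number as a term, WT included. KO against HET values of named genes come from the fit without the block. Named genes were *Shank3*, the 12 higher and 12 lower genes described above, and in each of 50 lists a few preset genes and at most 4 genes with an unadjusted p under 0.05, of which a few are not reported here. The members and lists were chosen with earlier results of these data known. Alternatives were other pseudocounts, filters, scalings and weights, a block, an empirical null and leaving out libraries.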

Additional observations from a re-analysis of the deposited data

How the results depend on the processing

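Under the 21 alternatives, the number of genes past the adjusted p between HET and WT was 0 except with an empirical null, which takes the width of the null from the data: there 1 gene passed (*Slc5a6*), 529 had an unadjusted p under 0.05, and 2 genes passed between KO and HET. With the replicate number as a block, 365 genes had an unadjusted p under 0.05 between HET and WT, and 0 passed the adjusted p. No label states that libraries of the same number are pairs. Leaving out libraries gave 119 to 394 genes at an unadjusted p under 0.05, and 633 to 2259 genes without overlap, since fewer libraries then have to lie apart. Of 50 list medians 12 moved by more than the spread between libraries in at least 1 alternative, in 16 of 999 values. For the changes below, the cause was not tested. Of the 122 genes followed, 52 changed sign in at least 1 alternative, all of them with values of at most 0.274 in size (*Cartpt*) except *Uvssa*, which was listed at 0 in single libraries. Leaving out 1 library, or HET3 and KO3 together, changed the sign of some genes, with these lowest and highest values: *Shank3* -0.075 to 0.197, *Drd1* -0.25 to 0.293, *Tac1* -0.401 to 0.139, *Pdyn* -0.127 to 0.377, *Drd2* -0.184 to 0.411, *Adora2a* -0.272 to 0.32, *Penk* -0.273 to 0.19, *Ppp1r1b* -0.324 to 0.141, *Bcl11b* -0.147 to 0.25, *Rgs9* -0.331 to 0.175, *Chat* -0.175 to 0.362, *Sst* -0.111 to 0.055, *Pvalb* -0.074 to 0.534, *Pdgfra* -0.005 to 0.092, *Aqp4* -0.041 to 0.112, *Cx3cr1* -0.105 to 0.026, *Col1a1* -0.479 to 0.603, *Slc17a7* -0.186 to 0.058, *Tbr1* -0.133 to 0.159, *Shank1* -0.255 to 0.056, *Dlg4* -0.108 to 0.211, *Dlgap3* -0.158 to 0.101, *Wasf1* -0.221 to 0.077, *Grin2b* -0.144 to 0.036, *Grm5* -0.349 to 0.031, *Kcnj4* -0.113 to 0.070, *Adcy5* -0.121 to 0.384, *Pde10a* -0.282 to 0.215, *Cartpt* -0.148 to 0.704, *Snap25* -0.032 to 0.113, *Syt1* -0.155 to 0.157, *Fos* -0.418 to 0.124, *Arc* -0.16 to 0.195, *Sgk1* -0.387 to 0.523, *Fkbp5* -0.101 to 0.198, *Dbp* -0.279 to 0.19, *Hspa1a* -0.017 to 0.303, *Hspa5* -0.192 to 0.040, *Hlcs* -0.082 to 0.101, *Btd* -0.181 to 0.034, *Pank1* -0.164 to 0.070, *Hk2* -0.069 to 0.281, *Ctnnb1* -0.047 to 0.113, *Hdac2* -0.039 to 0.024, *Chd8* -0.065 to 0.079, *Mtor* -0.098 to 0.339, *Ephb1* -0.173 to 0.221, *Nlgn2* -0.186 to 0.045, *Col4a1* -0.057 to 0.073, *Cdh13* -0.168 to 0.117, *Flna* -0.124 to 0.144, *Uvssa* -4.11 to 0.278. With array weights, *Shank3* was -0.024, *Tac1* was 0.006, *Drd2* was -0.119, *Adora2a* was -0.152, *Bcl11b* was -0.016, *Col1a1* was -0.057, *Dlg4* was -0.081, *Adcy5* was -0.045, *Pde10a* was -0.076, *Snap25* was -0.002, *Syt1* was -0.092, *Arc* was -0.030, *Dbp* was -0.195, *Hlcs* was -0.001, *Pank1* was 0.090, *Hk2* was -0.081, *Ctnnb1* was -0.023, *Mtor* was -0.074, *Ephb1* was -0.15, *Cdh13* was -0.144. With quantile normalization, *Penk* was 0.008, *Pde10a* was -0.040, *Snap25* was -0.041, *Syt1* was -0.054. With median centring, *Rgs9* was 0.006, *Kcnj4* was 0.003. The depth in reads is unknown, so precision comes from the spread between mice alone, and changes below about 1.5-fold were within the interval of many genes.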

Other observations

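Small differences were also viewed by gene length. The protein-coding genes tested were split by the length of the gene on the genome into 5 groups of 2844 genes. In the group of longest genes (81.4 to 2961 kb), the median log2 fold change of HET against WT was -0.03, and it stayed between -0.04 and -0.01 when any 1 library was left out. In that group 97 genes lay lower in HET without overlap (3.41%, against 2.19% of all genes) and 42 higher (1.48%, against 2.25%). In the group of shortest genes (up to 8.77 kb), the median was 0.02, with a range of -0.02 to 0.03 when 1 library was left out, and 37 genes lay lower (1.3%) and 75 higher (2.64%). The per-library medians of the groups overlapped between genotypes: relative to the WT mean they were 0.027, -0.010 and -0.019 in WT and -0.022, -0.044 and -0.006 in HET for the longest genes, and -0.036, 0.023 and 0.013 in WT and -0.020, 0.073 and -0.011 in HET for the shortest, where HET2 alone lay above WT. The KO against WT medians of the longest and shortest groups were 0.00 and -0.01.

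The neighbours of *Shank3* on chromosome 15 were also looked at. Within 3 Mb either side 40 genes were tested, their median log2 fold change was -0.01, and 2 of them did not overlap between HET and WT (5%, against 4.45% of all genes). They were *Dennd6b*, 303 kb away, and *Arsa*, an enzyme that degrades sulfatide, 22.2 kb away, at -0.26 and -0.14.

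*Yy2*, a zinc finger gene, was listed at 0 in all HET libraries and at 0, 46.47 and 34.58 in WT and 0, 0 and 13.76 in KO.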
